A study of Mus musculus with 2 samples.

Results

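The proteasome is the barrel-shaped protease that degrades ubiquitin-tagged proteins. Its core particle stacks outer rings of alpha subunits on inner rings of beta subunits, and 3 of the beta subunits carry the catalytic sites. A regulatory cap of ATPases and non-ATPase subunits recognises and unfolds substrates, and separate activators can open the core without that cap. In immune cells interferon gamma is known to induce the activator subunits Psme1 and Psme2 and the inducible catalytic subunits Psmb8, Psmb9 and Psmb10, which replace Psmb5, Psmb6 and Psmb7 and alter the peptides available for class I presentation.

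The genes described here were 41 of the 32285 genes listed in each count matrix, chosen by symbol. They were the alpha subunits Psma1 to Psma8, the beta subunits Psmb1 to Psmb7 and Psmb11, the cap ATPases Psmc1 to Psmc6, the cap subunits and cap assembly chaperones numbered Psmd1 to Psmd14, the activators Psme1 to Psme4 and the inhibitor Psmf1. The 3 inducible catalytic subunits were left out by the rule and appear below only as partners of the members. The rule itself used no measured value, but the genes were chosen with earlier results of these data known.

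The study profiled lungs of male ICR mice aged 6 to 8 weeks by droplet single-cell RNA sequencing of 3′ ends. The LPS_MCZ library came from mice given LPS, a bacterial endotoxin, together with the azole antifungal miconazole by intraperitoneal injection, and the LPS library came from mice given LPS alone. The labels disagree on how much miconazole was given, with 0.2 mg/kg among the sample's characteristics and 1 mg/kg under extraction. Each library pooled the left lower lobes of all mice of its group, so each group was 1 sample, no test between groups was possible, and the sources used here state neither the number of mice nor the LPS dose nor the timing.

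After filtering, the LPS_MCZ library held 8314 cells and 68005975 UMIs (unique molecular identifiers, each counting 1 captured transcript end) and the LPS library held 12075 cells and 89043619 UMIs. Median UMIs per cell were 6180 and 5809. There were 243 cell barcodes present in both libraries, with a median of 995 UMIs in LPS_MCZ and 723 in LPS, and results were also computed without them. Cells were clustered without the proteasome genes, named from marker genes, and called by cluster number where the markers did not settle a name. Cluster 20 held B cell and plasma cell markers, cluster 17 held nonclassical monocyte markers and cluster 11 held club and alveolar type 2 epithelial markers. All intervals below are 95% intervals for counting error alone and say nothing of the spread between mice.

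Levels are UMIs per 1000000 UMIs of a cell class (CPM). Ratios are log2 of LPS_MCZ over LPS with 1 CPM added to each, and log2 ratios of summed genes are taken on the CPM themselves. Intervals of all ratios are taken on the counts without that addition. At a few CPM the added 1 CPM therefore draws a ratio toward 0 within its interval, and counts past the threshold use the ratios with it. A member was compared in a class where it had at least 50 UMIs over both libraries, and a ratio beyond 0.5 in either direction, a fold of 1.41, was counted as past the threshold. Since UMIs count 3′ ends, levels were not divided by transcript length, and capture may differ between genes.

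The promoters of 4 members are shown, Psme1 and Psme2 for their ratios and Psmb5 and Psmb6 for a motif. Whether a motif bears on any ratio was not tested. Psme1 and Psme2 had the lowest ratios in alveolar macrophages, and Psmb5 and Psmb6 are constitutive catalytic subunits whose promoters held an antioxidant response element, the class of motif through which NRF1 is known to raise proteasome genes. The promoter of the other one, Psmb7, was not searched. The windows run from 250 bases before to 50 bases after each RefSeq start on GRCm38.p6 and are written 5′ to 3′ on the gene's own strand. They lie at chr14:55578244-55578543 (plus strand, Psme1), chr14:55590972-55591271 (minus strand, Psme2, the first of its 2 RefSeq windows), chr14:54617946-54618245 (minus strand, Psmb5) and chr11:70525107-70525406 (plus strand, Psmb6). Capitals mark a match to the interferon-stimulated response element in Psme1 and to the antioxidant response element in Psmb5 and Psmb6.
Psme1: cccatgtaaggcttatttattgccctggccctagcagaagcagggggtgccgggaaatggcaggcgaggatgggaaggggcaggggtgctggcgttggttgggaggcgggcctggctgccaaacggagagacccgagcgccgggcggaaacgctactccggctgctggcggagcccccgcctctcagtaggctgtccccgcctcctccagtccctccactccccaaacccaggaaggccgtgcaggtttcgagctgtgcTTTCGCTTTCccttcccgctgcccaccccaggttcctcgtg
Psme2: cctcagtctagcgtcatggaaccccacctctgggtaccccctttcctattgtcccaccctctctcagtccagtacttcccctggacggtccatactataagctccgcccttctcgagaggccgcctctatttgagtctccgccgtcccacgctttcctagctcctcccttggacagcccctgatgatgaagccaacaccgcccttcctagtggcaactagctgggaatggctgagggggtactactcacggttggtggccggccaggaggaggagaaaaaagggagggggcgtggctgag
Psmb5: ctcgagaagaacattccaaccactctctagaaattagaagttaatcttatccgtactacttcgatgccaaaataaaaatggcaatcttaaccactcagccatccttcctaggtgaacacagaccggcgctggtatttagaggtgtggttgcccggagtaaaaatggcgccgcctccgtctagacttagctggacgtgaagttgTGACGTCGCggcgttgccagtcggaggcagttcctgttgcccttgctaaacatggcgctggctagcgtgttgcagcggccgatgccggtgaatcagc
Psmb6: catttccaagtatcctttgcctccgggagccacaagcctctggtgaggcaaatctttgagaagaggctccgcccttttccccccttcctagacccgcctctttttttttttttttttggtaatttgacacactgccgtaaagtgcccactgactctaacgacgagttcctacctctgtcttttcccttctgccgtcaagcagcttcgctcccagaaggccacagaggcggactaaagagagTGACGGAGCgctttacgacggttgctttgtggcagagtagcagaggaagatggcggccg

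The antioxidant response element, searched as TGACNNNGC on both strands, was present in 6 of the 34 members with a RefSeq promoter, 17.6%, against 14.0% of all genes with one. The 6 were Psmb5, Psmb6, Psmc6, Psmd9, Psmd12 and Psme4. The interferon-stimulated response element, searched as GAAA, any 2 bases and GAAA again, was present in 4 members, Psmb3, Psmd4, Psmd9 and Psme1, which is 11.8% against 3.99% of all genes. The gamma-activated sequence TTCNNNGAA was present in Psmd2 alone, 2.94% of members against 9.55% of genes, and CCAAT in 13 members, 38.2% against 41.1%. In Psme1 the match starts at base 260 of the window, just after the annotated start. Both Psme2 windows lacked these letters for the interferon element. A match is a description of the letters and was not tested as a binding site. No promoter sequence was matched for Psma8, Psmb1, Psmb2, Psmb7, Psmc3, Psmd3 and Psmd7.

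In the GENCODE annotation of GRCm38, the 41 members lie on 16 chromosomes. Psme1 (chromosome 14, 55578123 to 55581529, plus strand) and Psme2 (chromosome 14, 55587441 to 55591113, minus strand) point toward each other across 5912 bases. Another gene, Emc9, overlaps Psme1 on the other strand. Psme2 has a near-identical copy, Psme2b, outside the rule, and reads of the pair could be split between them. Psma2 and Psmd12 overlap another annotated gene on the same strand, so their counts carry the same uncertainty.

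Classical monocytes had the highest summed level of the 41 genes among the 10 classes compared, and neutrophils had a far lower one. These classes had at least 100 cells. The unnamed clusters 13, 14 and 18 also had that many and were left out of the comparisons between classes for their shallow cells, with medians between 720 and 1134.5 UMIs. The sum was 6575 CPM in LPS_MCZ monocytes and 6345 CPM in LPS monocytes, against 1208 and 1247 CPM in neutrophils of the same libraries. On the log2 scale monocytes were above neutrophils by 2.44 in LPS_MCZ and by 2.35 in LPS. Neutrophils were 5719 of the LPS_MCZ cells and 7555 of the LPS cells, and a median neutrophil held 6 proteasome UMIs in each library. A median monocyte held 102 in LPS_MCZ and 89 in LPS, with the total UMIs of the median cell at 16548 and 14410 in monocytes and 5812 and 5648 in neutrophils.

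**Figure D1:**
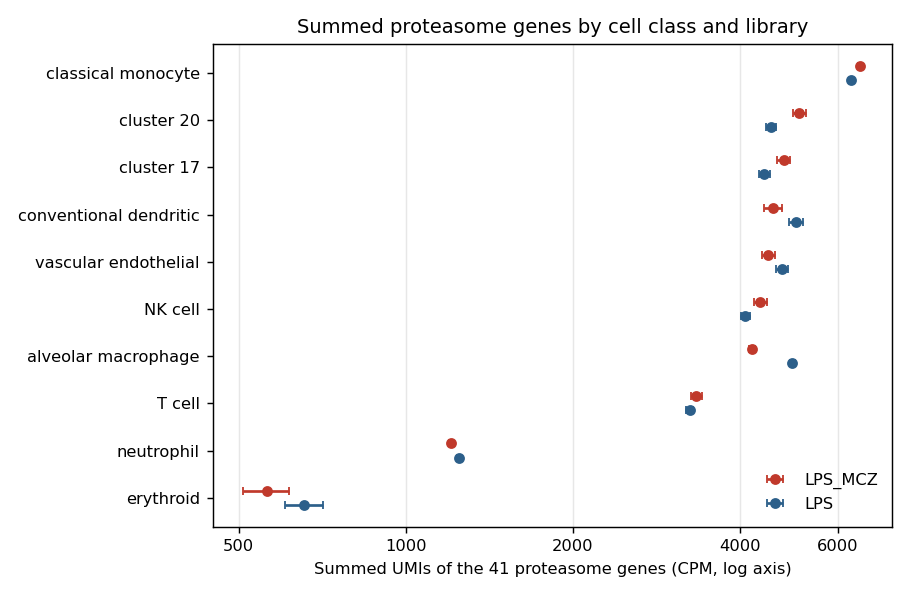
Summed UMIs of the 41 proteasome genes as CPM on a log axis, for each of the 10 classes compared (at least 100 cells, without the shallow clusters 13, 14 and 18), with LPS_MCZ in red above LPS in blue and bars giving the exact 95% Poisson interval. Classical monocytes sit highest at 6575 and 6345 CPM and neutrophils at 1208 and 1247 CPM, and alveolar macrophages have the widest gap between libraries among the classes shown above 1000 CPM.

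Between these extremes the order of the classes differed between the libraries. In LPS_MCZ the order below monocytes was cluster 20 (5118 CPM), cluster 17 (4790 CPM), conventional dendritic cells (4588 CPM), vascular endothelial cells (4500 CPM), NK cells (4349 CPM), alveolar macrophages (4205 CPM) and T cells (3339 CPM). The intervals of each neighbouring pair from cluster 17 to alveolar macrophages overlapped, so that stretch of the order is not resolved beyond counting error. In LPS the order was conventional dendritic cells (5041 CPM), alveolar macrophages (4967 CPM), vascular endothelial cells (4756 CPM), cluster 20 (4550 CPM), cluster 17 (4427 CPM), NK cells (4086 CPM) and T cells (3246 CPM). There the dendritic and alveolar macrophage intervals overlapped, as did those of endothelial cells with cluster 20 and of cluster 20 with cluster 17. Erythroid cells had 561.5 and 656.4 CPM, under the 1983 and 2158 CPM that free RNA could supply at their level of the neutrophil genes S100a8 and S100a9, so their proteasome values are read as background. The shallow clusters would stand within these orders, with cluster 13 at 6263 CPM in LPS_MCZ and 5003 CPM in LPS, cluster 18 at 5489 and 6166 CPM and cluster 14 at 4405 and 5150 CPM. In LPS_MCZ clusters 13 and 18 lay above cluster 20, and in LPS the interval of cluster 18 (6008 to 6327) overlapped that of monocytes.

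The activators made up a larger share of proteasome UMIs in neutrophils than in the other 8 classes above background. They were 33.96% (exact binomial interval 33.5 to 34.4) of the member UMIs in LPS_MCZ neutrophils and 36.3% (35.9 to 36.6) in LPS neutrophils. The shares were 12.6% and 15.7% in alveolar macrophages, 13.2% and 12.7% in classical monocytes, 21.7% and 22.6% in T cells and 22.1% and 22.6% in vascular endothelial cells. Psme1 and Psme2, which assemble together into the interferon-inducible activator ring, supplied most of it: 30.2% and 32.6% of neutrophil member UMIs, against 8.94% and 12.1% in alveolar macrophages. Without the 4 activators neutrophils had 797.6 and 795.0 CPM and classical monocytes 5709 and 5539 CPM.

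Conventional dendritic cells had the highest Psme1 and Psme2 of the 10 classes. Psme1 was at 464.6 CPM in LPS_MCZ and 643.6 CPM in LPS dendritic cells, and Psme2 at 463.0 and 613.8 CPM. In LPS_MCZ the lead was within counting error, with Psme1 at 464.5 CPM in vascular endothelial cells and Psme2 at 451.4 CPM in cluster 17. By the width of the range over the 10 classes, Psma4 and Psmb6 came first, with mean ranges of 5.59 and 4.92 log2 units, followed by the base subunits Psmd1 (4.89) and Psmd2 (4.78) and the lid subunit Psmd3 (4.71). Psma4, an alpha ring subunit, was highest in classical monocytes at 255.1 CPM in LPS_MCZ and 227.8 CPM in LPS. Psmb6, the constitutive beta1 subunit with caspase-like activity, was highest in alveolar macrophages at 189.3 and 239.6 CPM. The lower end of these 5 ranges is the erythroid background, so that order is partly an order of a few background UMIs. Over the 9 classes without erythroid cells, an alternative chosen after seeing the data, the widest ranges were those of Psma4 (3.96), Psmd1 (3.87), Psmd3 (3.83), the ATPase Psmc5 (3.81) and the lid subunit Psmd7 (3.76), each lowest in neutrophils in both libraries. The narrowest there were Psmb11 (0.61), Psme2 (1.33), Psmd10 (1.565), Psme4 (1.60) and Psme1 (1.78). Over all 10 classes the narrowest ranges were those of Psmb11 (0.61), the thymus form of a catalytic subunit with 6 UMIs in all cells, Psme2 (2.46), Psma8 (2.66), the testis form of an alpha subunit, Psmd10 (2.77) and Psme1 (2.87).

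Over the 20 class-by-library values the other genes most like the summed members were Rbm8a and Pfdn4, each with a Pearson r of 0.99, then Pdcd5, Uqcrc1, U2af2, Eif2s2, Ndufv2, Hnrnpk, Ccdc115 and Slc4a7. The median r was 0.97 over the 39 members with UMIs enough to count and 0.71 over 8382 other genes. The points share libraries, and each member is part of the sum it is set against, so these values only describe the classes.

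The balance between constitutive and inducible catalytic subunits also separated the classes. The inducible subunits held 40.0% of the UMIs of the 3 catalytic pairs in LPS_MCZ alveolar macrophages and 45.2% in LPS alveolar macrophages, against 86.6% and 85.6% in neutrophils. In alveolar macrophages Psmb9 was 22.8% (20.8 to 24.998) and 24.7% (23.0 to 26.5) of the beta1 pair with Psmb6, the lowest of the 3 sites. In neutrophils Psmb9 was 90.3% and 87.5% of that pair. At the beta5 site, with chymotrypsin-like activity, Psmb8 was 53.0% (50.4 to 55.6) of the pair with Psmb5 in LPS_MCZ alveolar macrophages and 60.1% (58.2 to 62.0) in LPS alveolar macrophages, and these intervals do not overlap. At the beta2 site, with trypsin-like activity, Psmb10 was 47.4% (44.4 to 50.5) and 52.5% (50.002 to 54.9) of the pair with Psmb7 in alveolar macrophages, intervals that overlap, and 61.6% (59.7 to 63.4) and 52.9% (51.2 to 54.6) in neutrophils. Within neutrophil cluster 3 that share lay the other way, at 55.1% (51.5 to 58.7) in LPS_MCZ and 65.3% (56.3 to 73.6) in LPS, with intervals that overlapped. Within each other neutrophil cluster it was higher in LPS_MCZ. Within alveolar macrophage cluster 7 that share was 46.6% (42.2 to 51.0) in LPS_MCZ and 54.7% (52.1 to 57.3) in LPS, and within cluster 15 it was 48.2% (43.9 to 52.6) and 35.3% (28.5 to 42.6), so the clusters of this class lay on opposite sides. The Psmb8 share was 53.8% and 60.7% in cluster 7 and 52.0% and 54.9% in cluster 15, where the intervals overlapped.

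**Figure D2:**
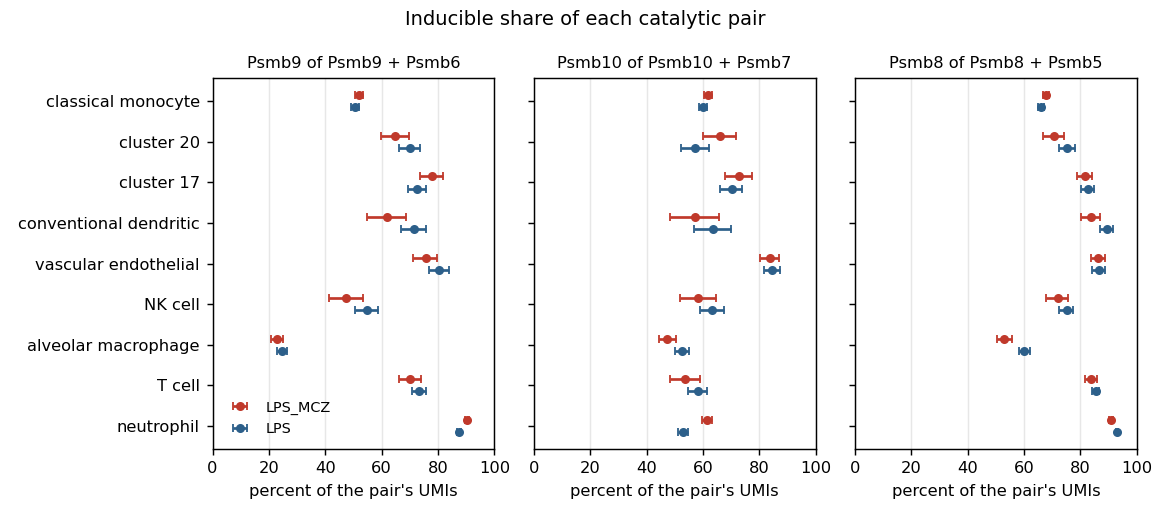
Share of each catalytic pair's UMIs held by the inducible subunit, in percent, for the 9 classes other than erythroid cells, with LPS_MCZ in red above LPS in blue and exact 95% binomial intervals. Alveolar macrophages lie lowest in each panel, at 22.8% and 24.7% for Psmb9, where neutrophils reach 90.3% and 87.5%. For Psmb10 in LPS they stand at 52.5% against 52.9% in neutrophils, with intervals that overlap.

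Alveolar macrophages, the resident phagocytes of the airspace, had a lower summed proteasome level in LPS_MCZ than in LPS. The sum was 4205 CPM (4155 to 4256) in LPS_MCZ and 4967 CPM (4917 to 5018) in LPS, a log2 ratio of -0.24 (-0.26 to -0.22). The ratio was -0.26 without the barcodes shared by both libraries and -0.24 after subtraction of free RNA. Of the 41 members 40 had the 50 UMIs, and all 40 had a ratio below 0, against 47.3% of the 9752 genes compared in this class. The median ratio was -0.17 for members and 0.02 for all genes. The interval lay wholly below 0 for 20 members and held 0 for the other 20, and the share of all genes with such intervals is not given. Below -0.5 there were 2 members, Psme1 and Psme2, against a background of 6.11%, and above 0.5 there were 0 against 11.9%. The median cell had 0.393% of its UMIs in these genes in LPS_MCZ and 0.483% in LPS, at a median of 22900 and 21279 UMIs per cell. Gm42418, a transcript that overlaps ribosomal RNA sequence and can mark library quality, was at 28156 CPM in LPS_MCZ and 8945 CPM in LPS alveolar macrophages (1.65), against ratios of 0.96 to 1.14 in the other 4 classes with member ratios plotted. Its part in the members' ratio was not tested beyond its removal from the totals with other abundant genes, which gave -0.21.

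Of the clusters that make up the class, the summed ratio was near 0 within cluster 7 and stayed below 0 within cluster 15. Cluster 7 (leading genes Slc7a2, Lpl and Ccl9) held 36.2% of LPS_MCZ and 83.2% of LPS alveolar macrophages, and cluster 15 (leading genes Plet1 and Mrc1) held 63.8% and 16.8%. In cluster 7 the members summed to 5135 CPM in LPS_MCZ and 5140 CPM in LPS, a log2 ratio of -0.0014 (-0.031 to 0.028), with 17 of 40 members below 0. In cluster 15 they summed to 3569 and 4023 CPM, a log2 ratio of -0.17 (-0.22 to -0.12), with 30 of 39 members below 0. The median ratio in cluster 7 was 0.034 for members and 0.0043 for all genes. In cluster 15 these medians were -0.16 and 0.052, against -0.17 and 0.02 in the whole class. Without the activators the summed ratio in cluster 15 was -0.18 (-0.23 to -0.13). Cluster 15 lay under cluster 7 by 0.52 in LPS_MCZ and by 0.35 in LPS on the log2 scale. When the clusters were weighted equally, the summed ratio was -0.07, 25 of 40 members lay below 0 and none passed the threshold. The share of all genes below 0 is not given within clusters or at equal weight.

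**Figure D3:**
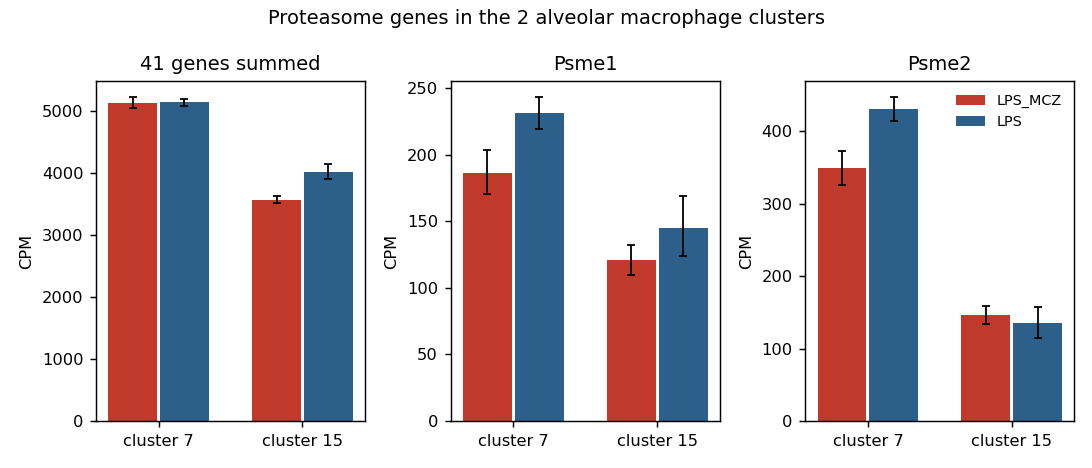
CPM of the 41 genes summed, of Psme1 and of Psme2 in alveolar macrophage clusters 7 and 15, with LPS_MCZ in red left of LPS in blue, bars starting at 0 and exact 95% Poisson intervals. The sums are alike in cluster 7 at 5135 and 5140 CPM and lower in cluster 15, and Psme1 and Psme2 are lower in LPS_MCZ in cluster 7.

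Among the activators in alveolar macrophages, Psme2 was at 228.5 CPM in LPS_MCZ and 384.9 CPM in LPS, a log2 ratio of -0.75 (-0.84 to -0.66), the lowest of the members. With Psme2b added the ratio was -0.74. Psme1 was at 147.3 and 217.8 CPM, a ratio of -0.56 (-0.68 to -0.45). Within cluster 7 Psme1 was at 186.5 and 231.1 CPM (-0.31, -0.46 to -0.16) and Psme2 at 348.8 and 430.7 CPM (-0.30, -0.41 to -0.19). Within cluster 15 Psme1 was at 120.5 and 145.1 CPM (-0.27, with an upper bound just under 0), and Psme2 at 146.3 and 134.9 CPM (0.12, -0.14 to 0.38). The nuclear activator Psme3 was at 57.4 and 65.5 CPM (-0.19, -0.39 to 0.01) and the large activator Psme4 at 98.1 and 109.5 CPM (-0.16, -0.31 to -0.01).

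The catalytic subunits were each lower in LPS_MCZ alveolar macrophages, with intervals below 0. Psmb6 was at 189.3 CPM in LPS_MCZ and 239.6 CPM in LPS (-0.34), Psmb5 at 109.1 and 133.8 CPM (-0.29) and Psmb7 at 86.9 and 101.8 CPM (-0.23). Within cluster 7 their ratios were -0.01, 0.04 and 0.08, and each of these intervals held 0. Within cluster 15 Psmb7 was at 73.0 CPM in LPS_MCZ and 103.3 CPM in LPS (-0.49, -0.81 to -0.18), while Psmb6 at 146.6 and 163.9 CPM and Psmb5 at 84.97 and 94.8 CPM, each at -0.16, had intervals that held 0.

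The alpha ring, the gate of the core, summed to 1085 CPM in LPS_MCZ and 1287 CPM in LPS (-0.25). Its lowest member was Psma5, at 108.8 and 149.8 CPM (-0.46, -0.60 to -0.32), the third lowest of all members. Psma5 was at 157.7 and 162.4 CPM within cluster 7 and at 75.4 and 81.1 CPM within cluster 15, and both intervals held 0. The non-catalytic beta subunits summed to 490.7 and 540.4 CPM (-0.14).

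In the whole class the ratios of the cap ATPases and base subunits lay nearer 0 than the alpha ring's -0.25 (-0.29 to -0.20), with intervals that did not overlap it. These sums by role are not given within clusters 7 and 15. The ATPases, which unfold substrates, summed to 436.1 CPM in LPS_MCZ and 470.0 CPM in LPS (-0.11, -0.18 to -0.04), and the base subunits Psmd1, Psmd2 and Psmd4 to 443.8 and 465.0 CPM (-0.07, -0.14 to 0.0047). The lid, which holds the deubiquitinase Psmd14, summed to 730.6 and 833.0 CPM (-0.19), and the cap chaperones Psmd5, Psmd9 and Psmd10 to 88.01 and 102.2 CPM (-0.22), and both intervals overlapped that of the alpha ring. The members nearest 0 were the ATPase Psmc2 at 75.7 and 76.1 CPM (-0.01), the cap chaperone Psmd5 at 20.2 and 20.3 CPM (-0.01) and the beta subunit Psmb1 at 143.7 and 145.4 CPM (-0.02). The inhibitor Psmf1 was at 14.5 and 16.8 CPM, with an interval of -0.61 to 0.19.

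**Figure D4:**
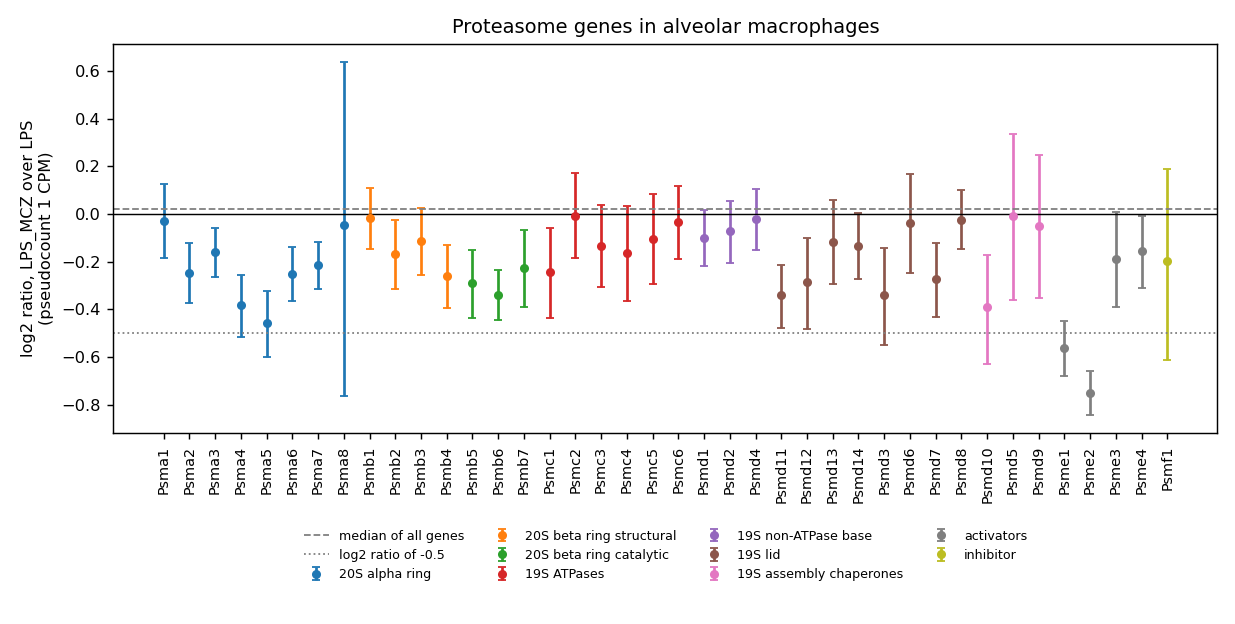
Log2 ratio of LPS_MCZ over LPS for the 40 members with at least 50 UMIs in alveolar macrophages, coloured by role, with exact 95% conditional binomial intervals, the median of all genes (0.02) dashed and the threshold of -0.5 dotted. Every point lies below 0, and Psme1 and Psme2 lie below the threshold.

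Several lists outside the rule were also lower in LPS_MCZ in this class, and their part in the members' ratios was not tested. The inducible catalytic subunits summed to 257.4 CPM in LPS_MCZ and 392.6 CPM in LPS alveolar macrophages (log2 ratio -0.61), with 2 of 3 below -0.5. Within clusters that ratio was nearer 0, at -0.38 (-0.50 to -0.27) in cluster 7 and -0.03 (-0.24 to 0.18) in cluster 15. Of 10 interferon response genes 9 were below -0.5, with a median of -1.52, and of 8 class I presentation partners 5 were. Within clusters 7 and 15 the interferon genes had medians of -0.78 and -0.24 and the class I partners -0.37 and 0.05. The 8 subunits of the CCT chaperonin, another housekeeping complex, had a median of -0.12 with 0 past the threshold. Genes for core assembly chaperones (median 0.13), for ubiquitin and its shuttles (-0.03) and for the transcription control of proteasome genes (0.05) also had 0 past it. The 9 neutrophil markers summed to 8771 CPM in LPS_MCZ and 6619 CPM in LPS alveolar macrophages, none of them at 0. Within cluster 7 S100a8 was at 1856 CPM in LPS_MCZ and 2553 CPM in LPS, and within cluster 15 at 4158.5 and 1943 CPM. The part of neutrophil RNA in the ratios of the members was not tested beyond a subtraction of free RNA, after which Psme1 and Psme2 were at -0.62 and -0.79.

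In neutrophils, the short-lived granulocytes that fill the lung after LPS, the members differed little between libraries. The sum was 1208 CPM (1196 to 1219) in LPS_MCZ and 1247 CPM (1237 to 1257) in LPS, a log2 ratio of -0.05 (-0.06 to -0.03). Of 39 members compared, 0 were above 0.5 against a background of 12.7%, and 0 were below -0.5 against 4.34%. All genes had a median of 0.12 in this class, so the members' median of -0.0044 lies 0.13 below it, and 22 of 39 members were below 0 against 33.7% of genes. The neutrophil clusters that held most cells differed between the libraries: clusters 2, 3 and 5 held 27.9%, 33.4% and 20.9% of LPS_MCZ neutrophils, and clusters 0, 1 and 4 held 25.7%, 28.3% and 20.0% of LPS neutrophils.

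The lowest neutrophil member was Psma5, at 19.2 CPM in LPS_MCZ and 25.6 CPM in LPS (-0.39, -0.55 to -0.28). Psma6, another alpha subunit, was at 38.4 and 45.7 CPM (-0.24) and Psme2 at 199.7 and 235.5 CPM (-0.24, -0.28 to -0.20). Psme1 was at 164.4 and 170.4 CPM (-0.05), Psme4 at 40.0 and 41.5 CPM (-0.05) and Psme3 at 5.93 and 4.85 CPM (0.24, 0.02 to 0.56). The highest were the inhibitor Psmf1 at 4.21 and 2.70 CPM (0.49, or 0.64 on the CPM themselves, 0.29 to 0.99), the catalytic subunit Psmb5 at 24.8 and 18.8 CPM (0.38, 0.27 to 0.54) and the deubiquitinase Psmd14 at 33.9 and 27.8 CPM (0.27). The other catalytic subunits went the opposite way to Psmb5, with Psmb6 at 18.5 and 21.8 CPM (-0.22) and Psmb7 at 28.3 and 32.5 CPM (-0.19), each interval below 0.

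The granule-gene cluster 6, led by Camp, Ngp and Ltf, had the highest neutrophil sum, at 1714 CPM in LPS_MCZ and 2072 CPM in LPS, a log2 ratio of -0.27 (-0.33 to -0.22). Of its 38 members 11 were below -0.5 against 12.8% of genes in that cluster, and 0 were above 0.5 against 13.3%. The other neutrophil clusters summed to between 1025 and 1356 CPM in LPS_MCZ and between 1063 and 1382 CPM in LPS. Cluster 2 had a ratio of -0.14 (-0.23 to -0.06), with 7 of 35 members below -0.5 against 13.9% and 3 above 0.5 against 17.8%. The intervals of clusters 0, 1, 3, 4 and 5 held 0, and cluster 1 had 5 of 38 members below -0.5 against 13.5% and 6 above 0.5 against 19.4%.

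In classical monocytes, recruited from blood, the members were slightly higher in LPS_MCZ. The sum was 6575 CPM (6530 to 6621) in LPS_MCZ and 6345 CPM (6304 to 6385) in LPS, a log2 ratio of 0.05 (0.04 to 0.07). None of 40 members passed 0.5 in either direction, against 4.19% of genes above it and 4.19% below it, and the median was 0.04 for members and 0.02 for all genes. Intervals lay above 0 for 11 members and below 0 for Psme3 alone, and the share of all genes with intervals that left out 0 is not given.

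The highest monocyte members were Psmd5 at 23.5 CPM in LPS_MCZ and 19.4 CPM in LPS (0.26), Psma5 at 217.7 and 184.2 CPM (0.24, 0.16 to 0.32) and Psme2 at 380.4 and 326.1 CPM (0.22, 0.16 to 0.28). Psme1 was at 334.9 and 327.4 CPM (0.03) and Psme4 at 100.4 and 95.3 CPM (0.07). The lowest were Psme3 at 50.3 and 57.4 CPM (-0.19, -0.34 to -0.04), Psmd13 at 101.9 and 106.6 CPM (-0.06) and Psmb1 at 230.2 and 239.8 CPM (-0.06). Of the catalytic subunits Psmb5 was at 197.8 and 180.9 CPM (0.13), Psmb6 at 162.3 and 148.6 CPM (0.13) and Psmb7 at 136.3 and 135.1 CPM (0.01). Psmf1 was at 18.4 and 16.4 CPM (0.16, -0.10 to 0.43). The cycling cluster 21 of this class had 7334 CPM in LPS_MCZ and 6814 CPM in LPS, above the 6447 and 6258 CPM of the larger cluster 9.

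In T cells the sum was 3339 CPM (3267 to 3412) in LPS_MCZ and 3246 CPM (3200 to 3293) in LPS, a log2 ratio of 0.04 (0.0028 to 0.078). None of 39 members passed the threshold, against 6.83% of genes above it and 4.44% below it. The highest were Psmd5 at 23.3 and 16.7 CPM (0.46, -0.02 to 0.96), the ATPase Psmc4 at 50.7 and 38.8 CPM (0.38, 0.06 to 0.71) and the chaperone Psmd9 at 32.3 and 25.9 CPM (0.31). The lowest were Psma6 at 62.1 and 81.7 CPM (-0.39, -0.67 to -0.13), Psmd10 at 14.3 and 17.6 CPM (-0.28) and Psmf1 at 21.7 and 26.2 CPM (-0.26). Psme1 was at 375.4 and 354.6 CPM (0.08), Psme2 at 207.5 and 222.5 CPM (-0.10), Psme3 at 20.8 and 24.1 CPM (-0.20) and Psme4 at 119.3 and 131.7 CPM (-0.14), and these 4 intervals held 0. Psmb5, Psmb6 and Psmb7 had ratios of 0.03, 0.20 and 0.06, with intervals that held 0.

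Vascular endothelial cells had 4500 CPM (4380 to 4622) in LPS_MCZ and 4756 CPM (4635 to 4880) in LPS, a log2 ratio of -0.08 (-0.13 to -0.03). Of 39 members, 2 were above 0.5 against 11.2% of genes and 1 was below -0.5 against 8.44%. Those above were the chaperone Psmd9 at 36.1 and 22.9 CPM (0.64, -0.06 to 1.40) and the base subunit Psmd1 at 114.2 and 80.0 CPM (0.51, 0.13 to 0.90), followed by Psmd10 at 26.0 and 18.8 CPM (0.45). Below it lay Psmf1 at 15.1 and 26.1 CPM (-0.75, -1.71 to 0.09), on 18 and 32 UMIs, followed by Psma1 at 62.2 and 84.1 CPM (-0.43) and Psmd7 at 117.6 and 146.1 CPM (-0.31). Psme1 was at 464.5 and 534.5 CPM (-0.20, -0.37 to -0.04), while the intervals of Psme2 (-0.06), Psme3 (0.23), Psme4 (-0.02), Psmb5 (-0.22), Psmb6 (0.18) and Psmb7 (-0.22) held 0. Free RNA stood at up to 1109 and 1341 CPM of the members in this class.

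**Figure D5:**
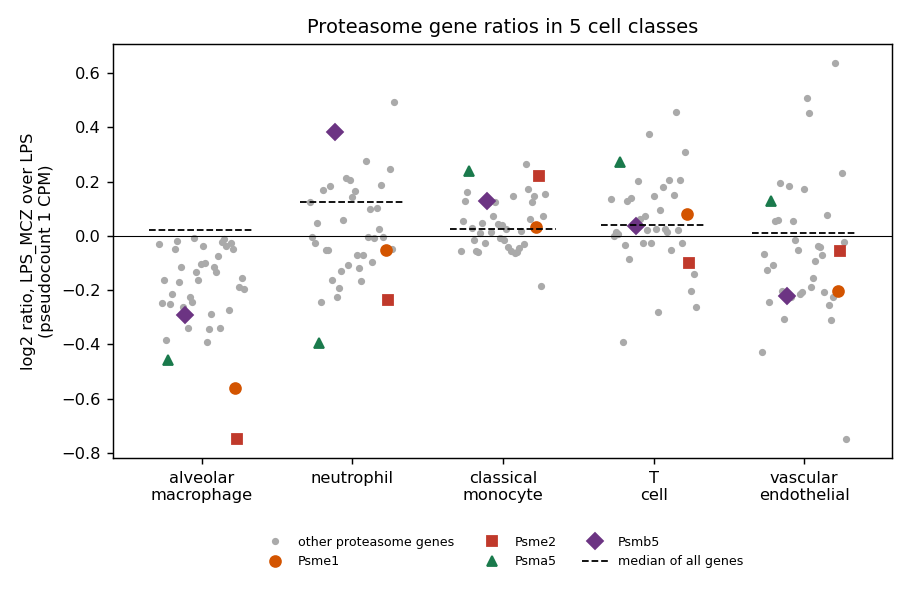
Log2 ratio of LPS_MCZ over LPS for each member with at least 50 UMIs in 5 cell classes, 1 point per gene, with Psme1, Psme2, Psma5 and Psmb5 marked and the median of all genes dashed. Alveolar macrophage points all lie below 0, and Psme2 and Psma5 lie below 0 in alveolar macrophages and neutrophils and above 0 in classical monocytes.

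Psme2 and Psma5 lay on opposite sides of 0 in different myeloid classes. Psme2 was also higher in cluster 17, at 451.4 CPM in LPS_MCZ and 343.3 CPM in LPS (0.39, 0.22 to 0.56), and lower in conventional dendritic cells, at 463.0 and 613.8 CPM (-0.41, -0.62 to -0.20). Psma5 was at 181.4 and 136.6 CPM in cluster 17 (0.41, 0.14 to 0.68) and at 101.5 and 142.3 CPM in conventional dendritic cells (-0.48, -0.95 to -0.04), on 64 and 124 UMIs in the dendritic cells. The differences between classes were not tested, since each class has 1 library per group.

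Among the smaller classes, cluster 20 had 5118 CPM in LPS_MCZ and 4550 CPM in LPS (0.17, 0.12 to 0.22), with 3 of 39 members above 0.5 against a background of 11.7%, and 0 below -0.5 against 9.07%. Cluster 17 had 4790 and 4427 CPM (0.11, 0.06 to 0.16), with 0 of 38 above 0.5 against 8.53% and 1 below -0.5 against 6.13%. NK cells had 4349 and 4086 CPM (0.09, 0.04 to 0.14), and 1 of 39 members lay above 0.5, Psme3 at 58.8 and 36.6 CPM, against 5.79% of genes, and 1 below -0.5, Psmd10, against 7.03%. Conventional dendritic cells had 4588 and 5041 CPM (-0.14, -0.20 to -0.07) in 45 and 73 cells, with 1 of 34 members above 0.5 against 18.6% and 1 below -0.5 against 12.7%. Fibroblasts had 5576 and 5308 CPM in 41 and 55 cells, with an interval of the ratio that held 0.

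The epithelial cluster 11, with 44 LPS_MCZ and 48 LPS cells, had the lowest ratio of the clusters with 50 or more cells. Its sum was 3700 CPM (3518 to 3888) in LPS_MCZ and 5676 CPM (5462 to 5897) in LPS, a log2 ratio of -0.62 (-0.71 to -0.53). All 32 members compared were below 0, against 62.1% of genes, and 21 were below -0.5 against a background of 30.2%, and 0 above 0.5 against 14.7%. The median of all genes was -0.18 there. Free RNA, read from S100a8 and S100a9, stood at 16.3% of the library level in LPS_MCZ and 4.83% in LPS. Other markers moved too: the alveolar type 2 gene Sftpc was at 22094 CPM in LPS_MCZ and 14737 CPM in LPS, the haemoglobin gene Hbb-bs at 1481 and 270.9 CPM and Gm42418 at 17628 and 4876 CPM. The 9 neutrophil markers summed to 17164 CPM in LPS_MCZ and 5713 CPM in LPS, the 7 alveolar type 2 markers to 30014 and 19662 CPM and the 5 club markers to 291670 and 222360 CPM, of which Bpifa1 was at 0 in both libraries. The part of these genes, of free RNA and of the mix of epithelial cells in this difference was not tested.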

How the data were processed

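Single-cell suspensions of pooled left lower lobes were profiled with 10x 3′ version 3 chemistry, per the labels' protocols. The deposited values were raw UMI counts per gene and barcode from Cell Ranger 7.0.0, per the file headers, and bcl2fastq 2.20 and mm10 were used per the submitters' processing notes. The authors' cell filters and handling of intronic reads are not given in the sources used here.

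Barcodes with at least 200 genes, 500 UMIs and at most 20% mitochondrial UMIs were kept, 8314 of 8500 in LPS_MCZ and 12075 of 12577 in LPS. Scrublet called 0 and 1 doublets where 6.65% and 9.66% were expected, so the caller did not work and the highest scores were removed as an alternative. Cells of both libraries were clustered together (scanpy 1.11.5, 2000 variable genes without the proteasome genes, 30 components, 15 neighbours, Leiden resolution 1). A class name needed 3 fixed markers at least 1 log2 unit above the lower quartile of clusters. That baseline, the limit on shallow clusters and the refusal of an innate lymphoid name for cluster 26 were set after the clusters were seen.

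Counts were summed per class and library. Ratio intervals are exact conditional binomial, level intervals exact Poisson and share intervals exact Clopper-Pearson, and UMIs limit these to counting error. The functions were tested on simulated data. No p-value was computed, since each group was 1 pooled library. Genes are named by role (catalytic, activator, inhibitor), by the 3 highest and 3 lowest ratios in each of 5 classes, and by the 5 widest and narrowest ranges over classes. Psme2 and Psma5 in further classes, and the clusters described beyond these classes, were chosen after their values were seen. The members and gene lists were chosen with earlier results of these data known. Promoters are RefSeq windows, searched on both strands.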

Additional observations from a re-analysis of the deposited data

Results flagged for a closer look

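Psma5, Psme2 and Psmb5 had log2 ratios of LPS_MCZ over LPS beyond 0.2 on opposite sides of 0 in different classes, each with a counting interval that left out 0. With 1 pooled library per group these differences between classes were not tested. Psma5 was at -0.46 in alveolar macrophages and -0.39 in neutrophils, and at 0.24 in classical monocytes and 0.27 in T cells. Within alveolar macrophage clusters 7 and 15 it was at -0.04 and -0.10, with intervals that held 0. Over the 7 neutrophil clusters it ran from -0.79 (cluster 2) to -0.02 (cluster 5), with intervals below 0 in clusters 2, 3 and 6. Psme2 was at -0.75 in alveolar macrophages and -0.24 in neutrophils, and at 0.22 in classical monocytes. Within clusters 7 and 15 it was at -0.30 and 0.12, the interval of cluster 15 holding 0, and over the neutrophil clusters it ran from -0.62 (cluster 6) to 0.01 (cluster 1). In monocyte clusters 9 and 21 it was at 0.20 and 0.32. Psmb5 was at -0.29 in alveolar macrophages and 0.38 in neutrophils. Within clusters 7 and 15 it was at 0.04 and -0.16, both intervals holding 0, and over the neutrophil clusters it ran from -0.09 (cluster 1) to 0.66 (cluster 3), with intervals above 0 in clusters 0, 3 and 4.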

How the results depend on the processing

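No paired analysis was possible because each group was 1 pooled library. Of 732 recomputed log2 ratios of single named members, 680 stayed within the counting interval, 688 kept their sign and 0 of those past the threshold changed sign. The summed ratio in alveolar macrophages stayed below 0 under each of 11 alternatives, between -0.32 and -0.074, and the cause of its movement was not tested. Members with few UMIs limit single ratios.

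Values that moved beyond counting error follow, summed log2 ratios first. Counts of members past a threshold are given here without the share of all genes at the same setting. They describe the processing and are not a result about the members. Thinned to 2000 UMIs per cell, alveolar macrophages were at -0.32, monocytes at 0.028 and endothelial cells at -0.18, and members past the threshold were 8 in alveolar macrophages, 5 in T cells, 1 in monocytes and 1 in neutrophils. Thinning also left out cells: 0 LPS_MCZ and 18 LPS alveolar macrophages, 14 and 26 monocytes, 133 and 182 neutrophils and 20 and 93 T cells. Of the 215 and 243 endothelial cells it left out 93 and 95. Equal weight to clusters gave -0.074, 0.076 and -0.095 in alveolar macrophages, monocytes and neutrophils, 25 alveolar macrophage members below 0, 0 past the threshold there and 1 in neutrophils. Means of per-cell CPM gave -0.28 in alveolar macrophages, -0.041 in T cells (the other side of 0), 0.032 in monocytes and -0.19 in endothelial cells, with 1 T cell and 8 endothelial members past the threshold. Centring on all genes gave -0.17 in neutrophils, 0.0017 in T cells and 0.028 in monocytes, with 1 neutrophil member past the threshold. Totals without S100a8, S100a9, Gm42418, mitochondrial and ribosomal protein genes gave -0.21 in alveolar macrophages and -0.071 in neutrophils. Libraries clustered separately gave 0.15 in T cells and 0.025 in monocytes, with 1 T cell and 1 endothelial member past the threshold. Free RNA subtraction gave -0.18 in endothelial cells, with 5 endothelial and 2 T cell members past the threshold, and inducible shares of 36.5% in LPS_MCZ and 43.8% in LPS alveolar macrophages. Without the shared barcodes, an alternative chosen after seeing the data, monocytes were at 0.028, 1 neutrophil member passed the threshold, and the inducible share of LPS_MCZ monocytes was 63.4%, against 62.2% with them. The stricter cell filter gave that share as 61.7% in LPS monocytes, against 60.3%. A threshold of 0.3 counted 8 members in alveolar macrophages, 4 in T cells, 3 in neutrophils and 7 in endothelial cells, and a pseudocount of 10 CPM left 1 in endothelial cells.

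Levels over neutrophils, in LPS_MCZ and LPS, stayed above 0. Resolution 0.5 gave 2.42 and 2.33 for monocytes and 1.99 and 2.06 for endothelial cells. Free RNA subtraction gave 1.84 and 2.03 for alveolar macrophages, 2.52 and 2.41 for monocytes and 2.16 and 2.29 for endothelial cells. Means of per-cell CPM gave 2.40 and 2.33 for monocytes, 1.94 and 2.09 for endothelial cells, 1.43 and 1.43 for T cells and 2.03 for LPS alveolar macrophages. The reduced totals gave 1.73 and 1.87 for alveolar macrophages, 2.39 and 2.26 for monocytes, 1.81 and 1.80 for endothelial cells and 1.60 and 1.49 for T cells. Without shared barcodes LPS_MCZ monocytes were at 2.42.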
